A study of Mus musculus with 15 samples.

Results

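The genes described here are proteases stored in the granules of mast cells, together with the mast cell growth factor receptor Kit. The 8 members were chosen by symbol: Mcpt1 and Mcpt2 as the mucosal type, Mcpt4, Cma1, Tpsb2 and Tpsab1 as the connective tissue type, and Cpa3 and Kit as genes that both types use. They are 8 of 55487 genes listed in the count table, each with 1 row, and all 8 were among the 19006 genes that reached 10 counts in 5 or more libraries and were tested. The study sequenced polyA RNA of conjunctiva from WT mice, whose strain the labels spell BALC/c. The mice were female, aged 9 to 12 weeks, and in every group the skin had first been treated with OVA and with MC903 (calcipotriol, a vitamin D analog that induces skin inflammation like that of atopic dermatitis) at a daily dose of 2.5 nmol over 7 days. Eye drops followed on days 18 to 24. The PBS group received PBS drops and no antibody is given for it, the isotype group received OVA drops and a control antibody at 25 mg/kg, and the anti-IL-4Rα group received OVA drops and an antibody that blocks the IL-4 receptor α chain at the same dose. Each group had 5 libraries, numbered 1 to 5, with totals of 48622246 to 67453932 counts in the PBS group, 48657048 to 87745024 in the isotype group and 50432495 to 71637073 in the anti-IL-4Rα group. PBS and isotype thus differ in both the challenge and the antibody, and their parts cannot be told apart.

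Mast cells are tissue cells that carry IgE on a high-affinity receptor and release stored mediators when antigen crosslinks it. In mice, connective tissue mast cells live in skin, conjunctival stroma and serosa for long periods and hold chymases, tryptases and a carboxypeptidase on heparin, whereas mucosal mast cells appear in epithelia during type 2 immune responses, expand with T cell cytokines, and hold the β-chymases encoded by Mcpt1 and Mcpt2. Blood levels of the Mcpt1 product, mMCP-1, serve as a readout of mucosal mast cell activity, and TGF-β is known to induce the gene in cultured mast cells.

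By position (GRCm38, GENCODE annotation), the chymase genes lie in a cluster on chromosome 14. Mcpt1 (ENSMUSG00000022227) spans chr14:56017971-56020384 on the plus strand and Mcpt2 (ENSMUSG00000022226) chr14:56042041-56044642 on the plus strand. Mcpt4 (ENSMUSG00000061068, the chymase mMCP-4) spans chr14:56059629-56062313 and Cma1 (ENSMUSG00000022225, the elastase-like chymase mMCP-5) chr14:55941451-55944675, both on the minus strand. The tryptase genes are neighbors on chromosome 17: Tpsb2 (ENSMUSG00000033825, mMCP-6) at chr17:25366305-25369098 on the plus strand and Tpsab1 (ENSMUSG00000024173, mMCP-7, which is not made in C57BL/6 mast cells because of a splice site change) at chr17:25343245-25345562 on the minus strand. Cpa3 (ENSMUSG00000001865, carboxypeptidase A3) is at chr3:20215620-20242181 on the minus strand and Kit (ENSMUSG00000005672) at chr5:75574916-75656722 on the plus strand. All are protein-coding, and the only annotated gene overlapping a member was a microRNA gene inside Cpa3.

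Promoters from RefSeq (GRCm38.p6, 250 bases before to 50 after the transcript start, in the direction of transcription) were available for 5 of the 8 members; Mcpt2, Tpsb2 and Tpsab1 had no entry. Those of Mcpt1 and Mcpt4 are shown because these neighboring chymase genes differed in their response, and those of Cma1 and Cpa3 because their counts moved with Mcpt4. Capitals mark GATA on either strand, the core that GATA factors bind, of which mast cells use GATA1 and GATA2. Mcpt1 is read from chr14:56017714-56018013 (plus), Mcpt4 from chr14:56062261-56062560 (minus), Cma1 from chr14:55944626-55944925 (minus) and Cpa3 from chr3:20242132-20242431 (minus).
Mcpt1: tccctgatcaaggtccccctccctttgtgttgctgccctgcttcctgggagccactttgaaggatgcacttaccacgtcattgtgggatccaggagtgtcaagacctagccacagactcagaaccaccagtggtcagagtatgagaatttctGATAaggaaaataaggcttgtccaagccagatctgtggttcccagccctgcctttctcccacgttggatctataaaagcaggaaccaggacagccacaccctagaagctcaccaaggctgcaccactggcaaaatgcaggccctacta
Mcpt4: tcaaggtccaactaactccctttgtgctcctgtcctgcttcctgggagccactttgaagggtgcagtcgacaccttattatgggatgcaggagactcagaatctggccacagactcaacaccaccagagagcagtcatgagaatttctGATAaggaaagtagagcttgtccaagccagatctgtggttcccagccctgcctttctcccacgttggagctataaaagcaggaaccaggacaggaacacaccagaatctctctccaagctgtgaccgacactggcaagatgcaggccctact
Cma1: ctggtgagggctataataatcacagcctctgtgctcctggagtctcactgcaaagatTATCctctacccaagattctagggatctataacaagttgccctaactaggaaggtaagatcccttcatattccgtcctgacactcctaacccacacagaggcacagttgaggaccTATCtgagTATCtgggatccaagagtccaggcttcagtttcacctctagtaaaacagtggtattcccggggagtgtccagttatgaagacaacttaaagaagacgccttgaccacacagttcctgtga
Cpa3: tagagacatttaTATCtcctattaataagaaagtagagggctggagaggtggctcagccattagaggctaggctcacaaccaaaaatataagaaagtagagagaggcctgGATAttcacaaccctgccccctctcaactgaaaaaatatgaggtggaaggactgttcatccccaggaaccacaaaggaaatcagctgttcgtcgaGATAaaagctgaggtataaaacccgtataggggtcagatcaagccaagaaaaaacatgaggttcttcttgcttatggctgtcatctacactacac

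The Mcpt1 and Mcpt4 promoters resembled each other more than other pairs did. They carried the same base at 149 of 296 positions at the best shift without gaps (50.3%), against 28.9% to 33.8% for the 9 other pairs, and shared an unbroken run of 53 bases that began 83 bases before the Mcpt1 start. Each held 1 GATA match, 98 bases before the start in Mcpt1 and 102 in Mcpt4, whereas Cma1 and Cpa3 held 3 each and Kit none. GATA was present in 57.9% of the 32851 promoters of the table. TATAAA lay 28 bases before the start of Mcpt1, 32 before that of Mcpt4 and 31 before that of Cpa3, and was held by 13.6% of all promoters. Letters known for SMAD binding, CAGAC, which 49.6% of promoters held, occurred 138 bases before the start in Mcpt1 and 141 in Mcpt4. The STAT6 letters TTCNNNNGAA (6.95% of promoters) and the related TTCNNNGAA (8.3%) were not in these 5 windows. The E-box CANNTG, held by 72.3%, matched in Cma1, Cpa3 and Kit. Both strands were searched, and 1 pair of matches overlapped, GATA and a second TATAAA in Cpa3. A match is a description of letters and was not tested as a site.

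The tissue label was checked against markers. The conjunctival epithelium list was detected for 6 of 6 genes, led by the goblet cell mucin Muc5ac, and summed to 3387 to 5644 CPM in the PBS libraries, 3869 to 5269 in the isotype libraries and 3206 to 5128 in the anti-IL-4Rα libraries, where CPM is counts per 1000000 counts of a library after TMM scaling. The list for lid skin epidermis, detected for 4 of 4 genes and led by Krt10, summed to 11600 to 18110, 11470 to 15440 and 8566 to 14020 CPM in the same groups, and 0 of its genes were called in any comparison; of the conjunctival list 1 gene was called, Pax6, higher in anti-IL-4Rα than in isotype and named after its values were seen, a call lost without PBS 2 or 4, isotype 2, 3 or 5 or anti-IL-4Rα 1, 2, 4 or 5 (adjusted p up to 0.097, edgeR). Per kilobase of exon Krt10 stood at 3223 ± 602 FPKM (SD, n = 5) and Muc5ac at 145 ± 27.7 FPKM in the PBS group. The dermal fibroblast list (6 of 6 detected, led by Col3a1) summed to 4764, 5725, 5367, 5366 and 5975 CPM in PBS libraries 1 to 5, to 4989, 9612, 9290, 6110 and 8003 in the isotype libraries and to 6509, 6021, 6604, 4979 and 8524 in the anti-IL-4Rα libraries. In isotype against PBS 1 of its genes was called higher (Col3a1, by 0.77 ± 0.19 on the log2 scale) and 1 lower (Dcn, by 0.42 ± 0.09), and Dcn was called higher under blockade; these calls were kept without any 1 library and in 8, 8 and 7 of 9 other settings, and Dcn is named after its values were seen, and the part of fibroblast content in the members' values was not tested. Muscle and lacrimal gland genes were present too, and CPM is a share of this mixture. In such bulk samples, fewer mast cells and less RNA per mast cell cannot be told apart.

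In the PBS group the connective tissue proteases were abundant and the mucosal ones nearly absent. Levels between genes are compared as FPKM, which is CPM per kilobase of exon. Exon length pools all annotated exons of a gene, and the order between genes depends on it. Mcpt4 was highest, at 34.9 ± 7.6 FPKM (mean ± SD, n = 5), followed by Cma1 at 20.3 ± 4.36, Cpa3 at 16.6 ± 3.81 and Tpsb2 at 16.0 ± 2.52. Mcpt4 exceeded Cma1 in 5 of 5 libraries although their ranges overlapped, and Cpa3 exceeded Tpsb2 in 4 of 5, so that this pair did not differ beyond its spread. Kit (5.11 ± 0.645 FPKM) and Tpsab1 (2.48 ± 0.560) followed, each separated from its neighbors. Mcpt2 and Mcpt1 were last, at 0.0260 ± 0.0200 and 0.0209 ± 0.0312 FPKM, and were not distinguishable from each other at this depth.

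Mcpt1 was higher in the isotype group than in the PBS group and lower under receptor blockade than in the isotype group. In PBS libraries 1 to 5 it had 0, 0, 4, 0 and 2 counts, which is 0, 0, 0.0708, 0 and 0.0352 CPM. In the isotype libraries it stood at 0.736, 2.21, 8.50, 2.38 and 5.24 CPM (36, 216, 505, 136 and 290 counts). In the anti-IL-4Rα libraries it stood at 0.170, 0.362, 0.175, 0.0741 and 0.118 CPM (8, 24, 12, 3 and 5 counts). Every isotype library lay above every library of the other groups, isotype 1 being the lowest and isotype 3 the highest of them, and the lowest anti-IL-4Rα library lay just above the highest PBS library. The log2 fold change was 7.41 ± 0.87 (SE) for isotype against PBS (adjusted p = 0.000409, edgeR's quasi-likelihood test with Benjamini-Hochberg adjustment over all genes tested) and -4.33 ± 0.67 for anti-IL-4Rα against isotype (adjusted p = 0.00292, same edgeR test). For anti-IL-4Rα against PBS it was 3.08 ± 1.01 and did not pass (adjusted p = 0.0904, edgeR), although DESeq2 called it. Of the 6 PBS counts 4 were in PBS 3, without which the values against PBS were 8.51 for isotype and 4.18 for anti-IL-4Rα; over the fits without 1 library they ran from 6.88 to 8.51 and from 2.64 to 4.18. Because the PBS group held so few counts, the values against PBS depend on the prior count, and summed counts per normalized library size are given beside them: they were 184 times higher in isotype than in PBS, with an exact 95% interval of 84.3 to 502 that covers counting error only. Isotype was likewise 18.9 times higher than anti-IL-4Rα (14.3 to 25.5), and anti-IL-4Rα 9.74 times higher than PBS (4.18 to 27.7). On the scale of log2(CPM + 1), where 1 is large beside such levels, limma gave Mcpt1 differences of 1.99 for isotype against PBS, -1.79 for anti-IL-4Rα against isotype and 0.20 for anti-IL-4Rα against PBS, with the first 2 called.

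Mcpt2, which encodes a chymase-like protein of the same cells, followed the same order. PBS libraries 1 to 5 held 2, 0, 2, 3 and 1 counts (0.0275, 0, 0.0354, 0.0573 and 0.0176 CPM). The isotype libraries held 0.347, 1.26, 4.53, 1.69 and 2.27 CPM (17, 123, 269, 97 and 126 counts). The anti-IL-4Rα libraries held 0.298, 0.286, 0.262, 0.0988 and 0.0945 CPM (14, 19, 18, 4 and 4 counts). The groups did not overlap in any comparison, but isotype 1 lay close above anti-IL-4Rα 1, and anti-IL-4Rα libraries 4 and 5 were lower than the other 3 of their group. Mcpt2 rose by 6.12 ± 0.74 on the log2 scale in isotype against PBS (adjusted p = 0.000484, edgeR) and fell by 3.22 ± 0.57 in anti-IL-4Rα against isotype (adjusted p = 0.00553, edgeR). Against PBS, anti-IL-4Rα was at 2.90 ± 0.82 (log2, adjusted p = 0.0629, edgeR), which did not pass. It passed with DESeq2, in a fit to the 2 groups only, and without isotype 1 or isotype 3 in the shared fit (adjusted p of 0.0302 to 0.136 in edgeR over the fits without 1 library). The limma differences of Mcpt2 on log2(CPM + 1) were 1.40, -1.17 and 0.23 in the same order as for Mcpt1, with the first 2 called. Mcpt1 and Mcpt2 reached 10 counts in all 5 isotype libraries, in 2 and 3 anti-IL-4Rα libraries and in 0 PBS libraries, so both entered the test through the group in which they were high.

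**Figure D1:**
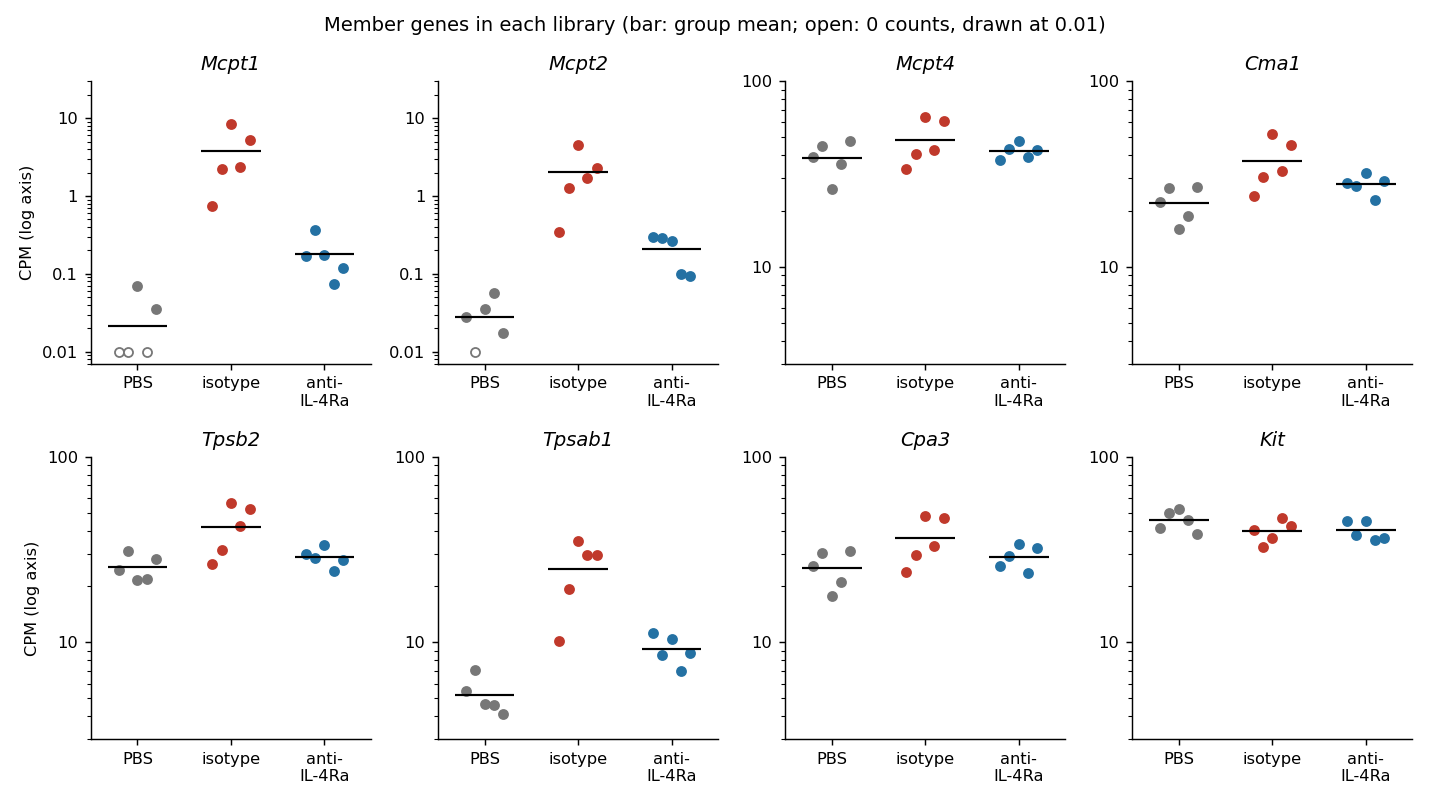
CPM of the 8 members in each library on log axes, with 5 points per group in the order of the replicate numbers and a bar at the group mean; open points are libraries with 0 counts, drawn at 0.01. Mcpt1 and Mcpt2 of the isotype libraries sit above all others (0.736 to 8.50 and 0.347 to 4.53 CPM), whereas the groups of Mcpt4, Cma1, Tpsb2, Cpa3 and Kit overlap. For Tpsab1 the anti-IL-4Rα libraries overlap with both other groups, and isotype and PBS do not overlap.

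The connective tissue chymases moved little by comparison. Mcpt4 stood at 39.2, 44.7, 26.1, 35.7 and 47.7 CPM in PBS libraries 1 to 5. It stood at 33.5, 40.4, 63.9, 42.5 and 61.2 CPM in the isotype libraries and at 37.6, 42.8, 47.5, 39.1 and 42.6 CPM in the anti-IL-4Rα libraries. Isotype 3 and 5 were the highest libraries and PBS 3 the lowest, but the groups overlapped throughout. The log2 fold change was 0.32 ± 0.18 for isotype against PBS (adjusted p = 0.239, edgeR) and -0.20 ± 0.18 for anti-IL-4Rα against isotype (adjusted p = 0.450, edgeR), and neither passed. Cma1 stood at 22.4, 26.4, 16.1, 18.7 and 27 CPM in the PBS libraries. In the isotype libraries it stood at 24.1, 30.4, 52, 32.8 and 45.4 CPM, and in the anti-IL-4Rα libraries at 28.1, 27.1, 32, 22.9 and 28.9 CPM. Of the isotype libraries, isotype 1 alone fell within the PBS range. Cma1 rose by 0.74 ± 0.20 on the log2 scale in isotype against PBS (adjusted p = 0.0214, edgeR), a call that was lost without PBS 4, isotype 3 or isotype 5 (adjusted p up to 0.059 in edgeR). The change of -0.41 ± 0.20 under blockade did not pass (adjusted p = 0.162, edgeR).

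The tryptases, which form tetramers on heparin, differed from each other. Tpsb2 stood at 24.6, 31, 21.6, 22.1 and 28 CPM in PBS libraries 1 to 5. It stood at 26.3, 31.6, 56.6, 42.2 and 52.3 CPM in the isotype libraries and at 30, 28.5, 33.4, 24.2 and 27.7 CPM in the anti-IL-4Rα libraries. Isotype 3, 4 and 5 exceeded every library of the other groups, while isotype 1 lay inside the PBS range. Tpsb2 rose by 0.72 ± 0.18 on the log2 scale in isotype against PBS (adjusted p = 0.0192, edgeR), a call lost without isotype 3 (adjusted p = 0.0525, edgeR; 0.0033 to 0.0525 over the fits without 1 library). The difference of -0.54 ± 0.18 between anti-IL-4Rα and isotype missed the threshold (adjusted p = 0.0616, edgeR) and passed it with DESeq2, with a muscle score as a covariate, and without isotype 1 or anti-IL-4Rα 3 (0.0145 to 0.157 in edgeR over the fits without 1 library). Tpsab1 stood lower and moved more: 5.49, 7.09, 4.67, 4.59 and 4.11 CPM in the PBS libraries. The isotype libraries had 10.1, 19.3, 35.1, 29.4 and 29.6 CPM, and the anti-IL-4Rα libraries 11.2, 8.57, 10.4, 6.97 and 8.79 CPM. All isotype libraries exceeded the PBS libraries, and isotype 1 alone fell within the anti-IL-4Rα range. Tpsab1 rose by 2.25 ± 0.28 on the log2 scale in isotype against PBS (adjusted p = 0.000567, edgeR) and fell by 1.43 ± 0.27 under blockade (adjusted p = 0.00769, edgeR). In anti-IL-4Rα against PBS its value of 0.82 ± 0.27 did not pass (adjusted p = 0.0911, edgeR), except with DESeq2, in a fit to the 2 groups only, and without isotype 1 (0.031 to 0.17 in edgeR over the fits without 1 library). The tryptase genes are similar in sequence, and their deposited values were whole to within 0.1 except in isotype 3, so the sharing of reads between them in the authors' counting is uncertain.

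Cpa3 ranged from 17.7 to 30.9 CPM in the PBS libraries, 24 to 47.7 in the isotype libraries and 23.6 to 33.8 in the anti-IL-4Rα libraries. It did not pass in isotype against PBS (log2 0.52 ± 0.20, adjusted p = 0.0825, edgeR), except with DESeq2 and without isotype 1 (0.0284 to 0.199 in edgeR over the fits without 1 library). Its log2 fold change was -0.32 ± 0.20 in anti-IL-4Rα against isotype and 0.20 ± 0.20 in anti-IL-4Rα against PBS, and neither passed. Carboxypeptidase A3 is made by both mast cell types and by basophils. Kit, the receptor for stem cell factor, which melanocytes also express, ranged from 38.2 to 52.1, 32.5 to 46.7 and 35.5 to 45.2 CPM in the PBS, isotype and anti-IL-4Rα libraries. Its log2 fold changes were -0.20 ± 0.11 in isotype against PBS, 0.02 ± 0.11 in anti-IL-4Rα against isotype and -0.18 ± 0.11 in anti-IL-4Rα against PBS, and none passed. The melanocyte list was detected for 6 of 6 genes, led by Dct, and summed to 98.4 to 138 CPM in the PBS, 97.4 to 210 in the isotype and 85.3 to 154 CPM in the anti-IL-4Rα libraries; 0 of its 6 genes were called in any comparison, and its part in the Kit values was not tested.

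For isotype against PBS, 5 of 8 members were called, all higher (Mcpt1, Mcpt2, Cma1, Tpsb2 and Tpsab1), against 17% of the 19006 genes tested and 9.53% called higher; 3 of 8 had groups that did not overlap (Mcpt1, Mcpt2 and Tpsab1), against 12.3% of genes. The median log2 fold change was 0.73 over the members and -0.01 over all genes tested. For anti-IL-4Rα against isotype, 3 of 8 were called, all lower (Mcpt1, Mcpt2 and Tpsab1), against 14.9% of genes called and 8.13% called lower, and 2 of 8 did not overlap, against 7.31%. The medians were -0.47 and 0.01. For anti-IL-4Rα against PBS, 0 of 8 were called by edgeR, against 3.72% of genes, and 2 of 8 (Mcpt1 and Mcpt2) did not overlap, against 6.1%. Both lay at the counting floor there. The lowest anti-IL-4Rα library had 3 Mcpt1 counts beside 4 in the highest PBS library, and for Mcpt2 these were 4 and 3. In that comparison 3 members had an unadjusted p under 0.05 in edgeR, DESeq2 called 3 and limma on log2(CPM + 1) called 0. The comparisons share the isotype or the PBS libraries and are not independent. Leaving out isotype 3 lowered the first count to 3.

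**Figure D2:**
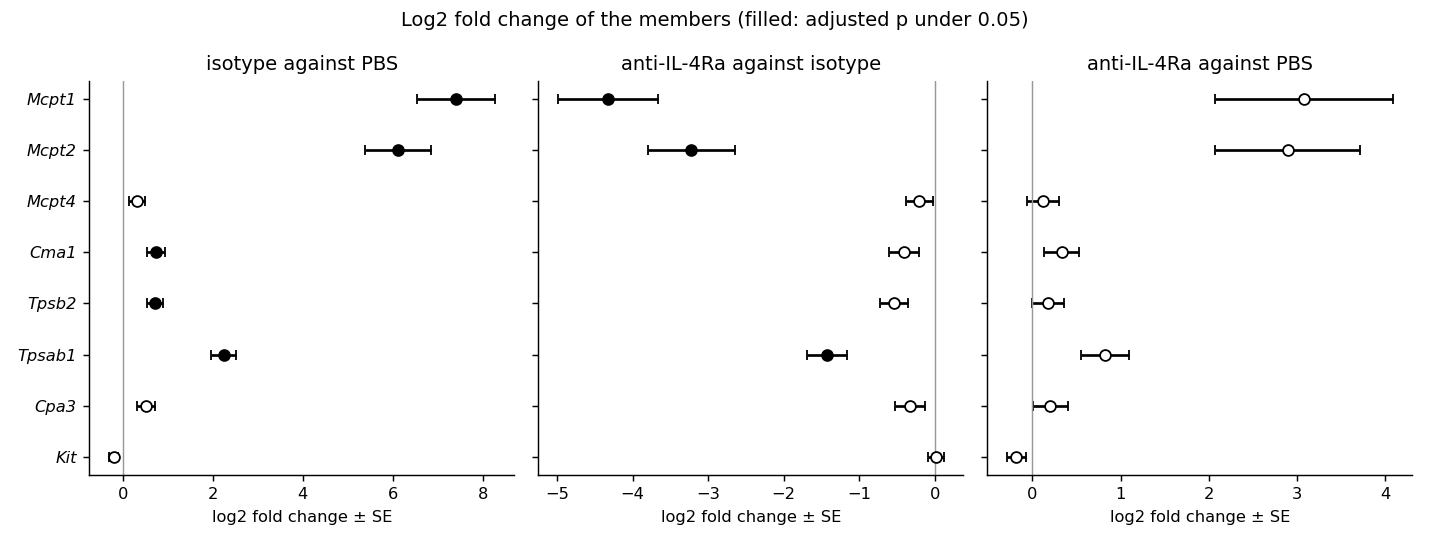
Log2 fold change of each member with its SE (bars) in the 3 comparisons; filled points passed an adjusted p under 0.05. The mucosal genes stand apart in isotype against PBS, at 7.41 for Mcpt1 and 6.12 for Mcpt2, and Tpsab1 is next at 2.25; the panels have different horizontal scales.

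A ratio of 2 genes within a library needs no scaling between libraries. The log2 ratio of Mcpt1 to Mcpt4 counts, with 0.5 added to each, averaged -11.03 ± 1.77 (SD, n = 5) in the PBS group, -4.06 ± 0.96 in the isotype group and -7.95 ± 0.74 in the anti-IL-4Rα group. The isotype libraries did not overlap with either other group, whereas PBS 3 lay within the anti-IL-4Rα range. Isotype exceeded PBS by 6.97 (two-sided p = 0.00794 by an exact permutation of the libraries, which is the lowest possible for 5 against 5; adjusted over the 3 comparisons, 0.0119). The anti-IL-4Rα group lay below isotype by a difference of -3.90 (exact permutation p = 0.00794, adjusted 0.0119) and above PBS by 3.08 (exact permutation p = 0.0159, adjusted 0.0159). Mcpt1 was chosen with earlier results known and passed the filter on low counts through the isotype group. These p-values therefore describe the separation and are not independent support. In edgeR, Mcpt1 was not called in anti-IL-4Rα against PBS. PBS 1, 2 and 4 had 0 Mcpt1 counts, so their ratios are set by the added count and by their Mcpt4 counts, and the size of the differences from PBS depends on that choice: with 3 added counts they were 5.13 for isotype and 1.62 for anti-IL-4Rα. Without PBS 3 they were 7.64 and 3.75 with 0.5 added.

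Mcpt1 and Mcpt2 together made up a small share of the protease counts of the 6 mucosal and connective tissue genes. The share was 0.03%, 0%, 0.155%, 0.0707% and 0.0494% in PBS libraries 1 to 5; the 0 of 6435 counts in PBS 2 allows up to 0.0597% (upper Wilson 95% limit, counting error only). In the isotype libraries it was 1.14%, 2.77%, 5.90%, 2.70% and 3.83%, the lowest with a Wilson 95% interval of 0.872% to 1.49% and the highest with 5.51% to 6.32%. In the anti-IL-4Rα libraries it was 0.436%, 0.602%, 0.353%, 0.185% and 0.196%. The isotype shares lay above all others. The lowest anti-IL-4Rα share (7 of 3777 counts) lay above the highest PBS share (6 of 3875). Their Wilson 95% intervals, 0.0898% to 0.382% and 0.071% to 0.337%, overlapped. Per kilobase of exon the medians were 0.0586%, 3.49% and 0.426% in the same order of groups and the highest share in any library was 7.43%.

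Some ratios within the connective tissue type separated groups and others did not; these were looked at after the values were seen and are given without a test. Cma1 counts were 0.525 to 0.614 times those of Mcpt4 in the PBS libraries, 0.718 to 0.813 in the isotype libraries and 0.585 to 0.748 in the anti-IL-4Rα libraries. Isotype and PBS did not overlap, and the anti-IL-4Rα libraries spanned the gap between them. Tpsab1 counts were 0.147 to 0.229 times those of Tpsb2 in the PBS libraries, 0.384 to 0.696 in the isotype libraries and 0.288 to 0.375 in the anti-IL-4Rα libraries. No library of a group entered the range of another. Cpa3 counts were 0.59 to 0.68, 0.717 to 0.781 and 0.603 to 0.758 times those of Mcpt4, in the same order of groups. Tpsb2 counts were 0.587 to 0.825, 0.784 to 0.995 and 0.62 to 0.799 times those of Mcpt4, and these ranges overlapped in every comparison.

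**Figure D3:**
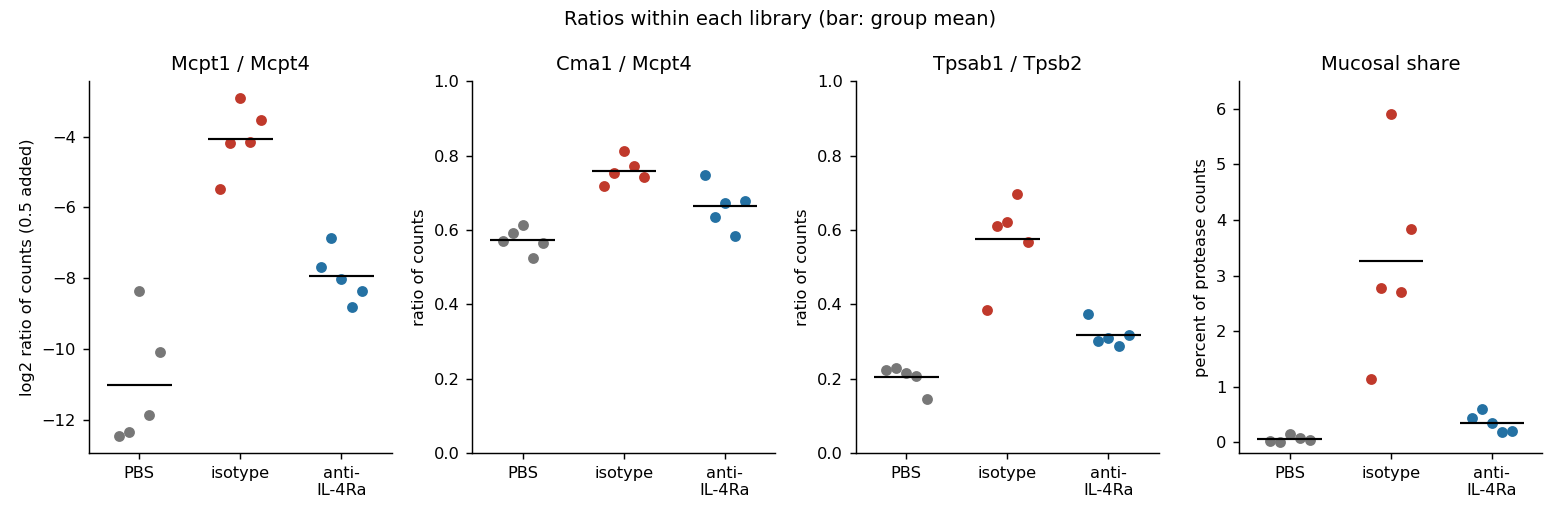
Ratios within each library, with a bar at the group mean: log2 of Mcpt1 over Mcpt4 counts, counts of Cma1 over Mcpt4, counts of Tpsab1 over Tpsb2, and the percent of protease counts from Mcpt1 and Mcpt2. The isotype libraries are highest for Mcpt1 over Mcpt4, for Tpsab1 over Tpsb2 and for the share, with shares of 1.14% to 5.90%, and Tpsab1 over Tpsb2 separates the 3 groups.

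Mcpt4 and then Cma1 stayed at the top of the order in every group. Cpa3 and Tpsb2 did not differ beyond their spread in the PBS group, and Tpsb2 exceeded Cpa3 in 5 of 5 isotype libraries. In the isotype group Mcpt4 (43.6 ± 12.2 FPKM), Cma1 (33.9 ± 10.5), Tpsb2 (26.2 ± 8.13) and Cpa3 (23.9 ± 6.94) followed in 5 of 5 libraries at each step, with overlapping ranges. Tpsab1, at 11.8 ± 4.76 FPKM, stood above Kit (4.45 ± 0.615) in this group, and Kit and Mcpt1 (3.76 ± 3.04) did not differ beyond their spread. Mcpt1 exceeded Mcpt2 (1.90 ± 1.48 FPKM) in 5 of 5 isotype libraries. In the anti-IL-4Rα group Kit (4.5 ± 0.519 FPKM) and Tpsab1 (4.39 ± 0.796) were level, as were Mcpt2 (0.196 ± 0.0966) and Mcpt1 (0.177 ± 0.108).

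Related proteases of the same gene clusters were taken from a list of 19 genes, of which 7 passed the filter on low counts. In isotype against PBS 3 rose, 0 fell and 4 did not pass, with a median log2 fold change of 0.25 against -0.01 over all genes. The counts of this and the following lists stand beside 17% of all genes called in isotype against PBS and 14.9% in anti-IL-4Rα against isotype. Mcpt8, the granule protease of basophils, rose by 6.07 ± 0.71 (adjusted p = 0.000409, edgeR), from 0 to 4 counts per PBS library to 44 to 347 in the isotype libraries; with 11 PBS counts in all, the fitted value depends on the prior count. Gzmb, a granzyme of cytotoxic lymphocytes and mast cells, rose by 3.49 ± 0.39 and Ctsg, cathepsin G, by 2.28 ± 0.43, the last at 2.08 and not called with a muscle score as a covariate (adjusted p = 0.0828, edgeR). In anti-IL-4Rα against isotype 3 fell and 0 rose: Mcpt8 by 1.74 ± 0.51 (adjusted p = 0.0384, edgeR), Gzmb by 1.60 ± 0.35 and Cpa4, the most abundant gene of the list, by 0.61 ± 0.15. The Mcpt8 call was lost without isotype 2, 3 or 5 or without anti-IL-4Rα 1, 2, 4 or 5, and the Cpa4 call without isotype 2 or 3 or anti-IL-4Rα 1, 2 or 4 (adjusted p up to 0.0991 and 0.0609, edgeR). Over the fits without 1 library the Mcpt8 value ran from 5.459 to 6.377 in isotype against PBS and from -1.954 to -1.135 under blockade. In a fit to the 2 groups only none of the 3 passed, and Mcpt8 and Cpa4 did not pass with a lacrimal score as a covariate, nor Mcpt8 without the filter or with limma. Calls over all genes in this comparison went from 2826 to 677 in the fit to the 2 groups and to 825 with the lacrimal score; the values there were -1.74 and -1.62 for Mcpt8, -0.61 and -0.52 for Cpa4, and -1.60 in the fit to the 2 groups for Gzmb.

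Granule and mediator genes of mast cells formed a list of 19, all tested. In isotype against PBS 7 rose, 0 fell and 12 did not pass, with a median of 0.23 on the log2 scale against -0.01 over all genes. Hdc, the enzyme that makes histamine, went from 2.45 ± 0.424 CPM (SD, n = 5) in PBS to 13.3 ± 7.24 in isotype and 4.43 ± 0.986 in anti-IL-4Rα libraries. It rose by 2.44 ± 0.34 on the log2 scale in isotype against PBS (adjusted p = 0.00102, edgeR) and fell by 1.58 ± 0.33 under blockade (adjusted p = 0.0118, edgeR). Tph1, an enzyme of serotonin synthesis, rose by 1.52 ± 0.26, and Srgn, the serglycin core that holds proteases in the granule, by 1.54 ± 0.25. Ptgs2 (1.74 ± 0.45), Tnf (1.15 ± 0.32) and Alox5ap (1.06 ± 0.20), which many leukocytes express, rose as well; the Ptgs2 call was lost without isotype 2 and that of Tnf without PBS 2, 4 or 5 or isotype 2 or 3 (adjusted p up to 0.0528 and 0.07, edgeR), and neither passed with a muscle score as a covariate (1.57 and 1.03 on the log2 scale), nor Tnf with a replicate block (1.15). Under blockade 5 of the 19 fell and 0 rose: Ptgs2 by 2.12 ± 0.46, Hdc, Srgn by 1.02 ± 0.25, the prostaglandin D synthase Hpgds by 0.52 ± 0.13 and the protease activator Ctsc by 0.33 ± 0.08. Of these, Srgn was lost without anti-IL-4Rα 1 or 4, Hpgds without isotype 3 or 5 or anti-IL-4Rα 4, and Ctsc without isotype 3 (adjusted p up to 0.0506, 0.0588 and 0.0508, edgeR). In a fit to the 2 groups only, or with a lacrimal score as a covariate, Ptgs2, Srgn, Hpgds and Ctsc did not pass, and Hdc did, although it was lost without the 3 libraries richest in lacrimal RNA (-1.30, adjusted p = 0.248, edgeR), an alternative chosen after seeing the data; with the covariate the values were -1.81 for Ptgs2, -0.92 for Srgn, -0.46 for Hpgds and -0.28 for Ctsc. Ctsd, the most abundant gene of the list, stayed between 1113 and 1412 CPM and was not called.

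Receptors and signaling genes of mast cells, also 19 and all tested, rose for 10 and fell for 0 in isotype against PBS, with a median of 0.71 on the log2 scale. Other leukocytes express several of these genes, among them Fcer1a and Ms4a2, which are also in the basophil list below. The part of those cells in the rise was not tested. Fcer1a, the IgE-binding chain of the high-affinity receptor, rose by 2.54 ± 0.35 and Ms4a2, its β chain, by 1.34 ± 0.33. Il1rl1, the IL-33 receptor, went from 3.83 ± 0.316 CPM in PBS to 18.4 ± 8.17 in isotype and 6.08 ± 0.815 in anti-IL-4Rα libraries, rose by 2.27 ± 0.31 (adjusted p = 0.000936, edgeR) and fell by 1.60 ± 0.30 under blockade (adjusted p = 0.00769, edgeR). Gata1 rose by 1.73 ± 0.39, the leukotriene receptor Cysltr2 by 1.45 ± 0.23 and the cytokine receptor chain Csf2rb by 1.41 ± 0.21. Under blockade 5 fell and 0 rose: Il1rl1, Cysltr2 by 1.33 ± 0.23, Csf2rb by 0.85 ± 0.21, Fcer1g by 0.65 ± 0.19 and Syk by 0.49 ± 0.15. Csf2rb was lost without isotype 3 or anti-IL-4Rα 1 or 4 (adjusted p up to 0.0553, edgeR). Fcer1g was lost without PBS 2 or 4, isotype 2, 3 or 5 or anti-IL-4Rα 1, 2, 4 or 5 (up to 0.0952), and Syk was kept only without isotype 1 or anti-IL-4Rα 3 (0.0133 to 0.115 over the 15 fits without 1 library). These 3 did not pass in a fit to the 2 groups only or with a lacrimal score as a covariate (-0.75 for Csf2rb, -0.58 for Fcer1g and -0.39 for Syk with it), and Fcer1g and Syk did not pass without the filter, with a replicate block or with limma, nor Syk with upper quartile factors or a muscle score. In isotype against PBS, Gata1 and Ms4a2 did not pass with a muscle score as a covariate (adjusted p of 0.0799 and 0.0574, edgeR), where their log2 fold changes were 1.88 and 1.69. Tgfbr2, the most abundant gene, was not called, except in isotype against PBS without isotype 1 (0.0294) and in 2 of the other settings.

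Mrgprb1 and Mrgprb2, receptors of connective tissue mast cells, are named here after their values were seen. Mrgprb1 stood at 4.7 ± 0.788 CPM in the PBS, 5.74 ± 1.49 in the isotype and 5.04 ± 0.638 in the anti-IL-4Rα group and was not called. Mrgprb2 stood at 4.86 ± 1.22, 3.66 ± 0.509 and 3.97 ± 0.857 CPM in the same groups and was called, lower in isotype than in PBS, without PBS 3 and in no other fit (adjusted p of 0.0327 to 0.275 in edgeR over the fits without 1 library).

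**Figure D4:**
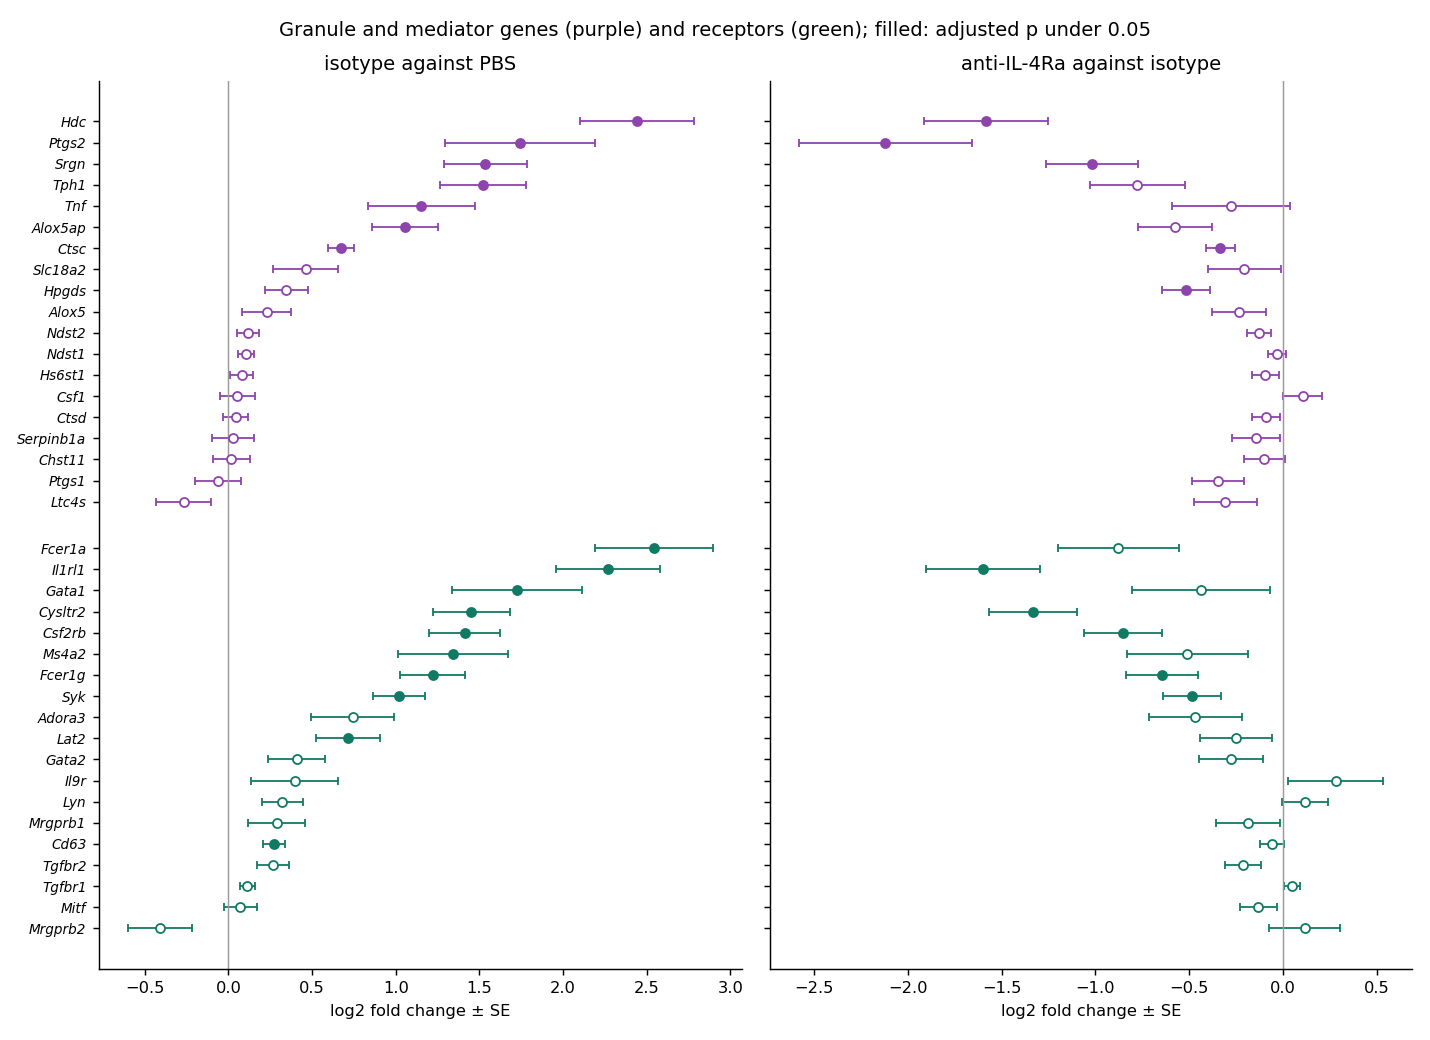
Log2 fold change with its SE for the granule and mediator list (purple) and the receptor list (green), in isotype against PBS and in anti-IL-4Rα against isotype; filled points passed an adjusted p under 0.05. In the left panel 7 of 19 and 10 of 19 genes are filled and lie right of 0; in the right panel 5 and 5 are filled and lie left of 0.

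Factors that induce mucosal mast cells or guide their progenitors made up a list of 21 genes, 19 of them tested. In isotype against PBS 6 rose, 0 fell and 13 did not pass (median 0.21 on the log2 scale). These were Il10 (3.58 ± 0.66), Il4 (1.74 ± 0.43), Il13 (1.30 ± 0.27), the integrin chain Itga4 (0.80 ± 0.18), Il4ra (0.74 ± 0.22) and Tgfb1 (0.48 ± 0.10). Il10 had 0 to 4 counts per PBS library, so its value depends on the prior count. Il4ra was lost without PBS 1, 2, 4 or 5 or isotype 2, 3 or 5 (adjusted p up to 0.0851, edgeR) and with a replicate block. With a muscle score as a covariate, under which calls over all genes went from 3235 to 525, only Il10 of these 6 passed; the values of the others were then 1.61 for Il4, 1.21 for Il13, 0.97 for Itga4, 1.06 for Il4ra and 0.54 for Tgfb1. Under blockade 3 of 19 fell and 0 rose, a share near the 14.9% of all genes called and above the 8.13% called lower: Il4ra by 1.06 ± 0.22, Il13ra1 by 0.37 ± 0.10 and Tgfb1 by 0.32 ± 0.10. Il13ra1 was lost without isotype 2, 3 or 5 or anti-IL-4Rα 1, 2 or 4 (up to 0.0809), and Tgfb1 was kept only without isotype 1, isotype 4 or anti-IL-4Rα 3 (0.00745 to 0.115 over the 15 fits without 1 library). Neither passed in a fit to the 2 groups only or with a lacrimal or a muscle score as a covariate (-0.32 and -0.38 for Il13ra1, -0.25 and -0.34 for Tgfb1), nor Il13ra1 with a replicate block, nor Tgfb1 without the filter, with upper quartile factors or with limma. Il4ra, the gene of the receptor chain that the antibody binds, stood at 64.1 ± 13.3 CPM in PBS, 107 ± 33.4 in isotype and 51.4 ± 14.8 in anti-IL-4Rα libraries. Stat6, the most abundant gene of the list, was not called, except under blockade without anti-IL-4Rα 3 (0.0208). Named after their values were seen, Kitl, which encodes stem cell factor, and Itgae were not called in any comparison, and Il9, a growth factor of mucosal mast cells, had 0 counts in all 15 libraries.

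In anti-IL-4Rα against PBS 5 genes of these lists were called, all higher, beside 3.72% of all genes called: Mcpt8 by 4.32 ± 0.72 on the log2 scale, Gzmb by 1.89 ± 0.39, Fcer1a by 1.67 ± 0.35, Itga4 by 0.84 ± 0.18 and Ctsc by 0.34 ± 0.08. The list medians were 0.37 for the related proteases, 0.00 for granule genes, 0.44 for receptors and 0.04 for inducers, against 0.00 over all genes. Mcpt8 kept its call without any 1 library and lost it with limma and without the 3 libraries richest in lacrimal RNA (4.78, adjusted p = 0.0588, edgeR), an alternative chosen after seeing the data under which the other 4 calls were lost too. The other 4 were lost without PBS 1, 2, 3 or 4 or anti-IL-4Rα 1 or 5, and Fcer1a, Itga4 and Ctsc also without anti-IL-4Rα 2, and Ctsc without anti-IL-4Rα 4 (adjusted p up to 0.0739 for Gzmb, 0.0786 for Fcer1a, 0.0833 for Itga4 and 0.0874 for Ctsc, edgeR). With a lacrimal or a muscle score as a covariate, under which calls over all genes went from 707 to 75 and 74, these 4 did not pass; their values were then 2.04 and 2.17 for Gzmb, 1.67 and 1.99 for Fcer1a, 0.91 and 0.95 for Itga4, and 0.41 and 0.36 for Ctsc. Nor did Gzmb, Fcer1a and Ctsc pass with limma, or Ctsc without the filter or with a replicate block. Mcpt8 passed in this comparison and Mcpt1 did not, and the difference between the genes was not tested.

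Under blockade the list medians were -0.72 for the related proteases, -0.28 for granule genes, -0.28 for receptors and -0.24 for inducers, against 0.01 over all genes tested.

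Genes of other cells moved with the members. The basophil list (9 of 9 genes detected, 8 tested) summed to 16.6, 15.3, 10.8, 14.2 and 15.3 CPM in PBS libraries 1 to 5, to 15.5, 24.8, 29.6, 22.3 and 37 in the isotype libraries and to 15.2, 18.3, 21.3, 14 and 18 in the anti-IL-4Rα libraries. Its most abundant gene was Itga2, 6 of 8 rose in isotype against PBS and 2 of 8 fell under blockade. Itga2 averaged 10.9, 12.2 and 9.80 CPM in the PBS, isotype and anti-IL-4Rα groups, beside 14.4, 25.85 and 17.35 for the list. It was not called in isotype against PBS (log2 0.16, adjusted p = 0.393, edgeR). Prss34, a defining basophil protease, had 0 to 4 counts per library, and 4 genes of the list, Mcpt8, Fcer1a, Ms4a2 and Il4, are also in the lists above. The eosinophil list (8 of 8 detected, led by Ear2) rose for 4 of 5 tested genes and fell for 2 under blockade. In anti-IL-4Rα against PBS 1 of the 5 was called higher and 2 lower. The list summed to 10.2, 9.38, 9.02, 12.9 and 7.89 CPM in the PBS libraries, to 17.3, 17.3, 27.8, 27.3 and 32.6 in the isotype libraries and to 8.99, 14, 19.3, 5.26 and 11.5 in the anti-IL-4Rα libraries. From isotype to anti-IL-4Rα the mean of Ear2 went from 14.7 to 3.54 CPM and that of Ear1 from 0.170 to 0.0246. Ccr3 went from 5.54 to 4.83 CPM, Siglecf from 2.87 to 2.61 and Il5ra from 1.005 to 0.695, so the members did not move alike. The defining granule genes Epx and Prg2 had at most 3 and 12 counts per library. The cytotoxic lymphocyte list, detected for 7 of 7 genes and led by Gzma, rose for 7 and fell for 2 under blockade. It summed to 4.26, 3.5, 3.68, 4.32 and 4.71 CPM in the PBS libraries, to 10.8, 13.3, 14.4, 11.3 and 28.5 in the isotype libraries and to 6.69, 7.4, 10.1, 5.78 and 5.95 in the anti-IL-4Rα libraries. The part of these cells in the values of Cpa3, Gzmb, Hdc, Fcer1a and Ms4a2, which they can express, was not tested.

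The connective tissue mast cell list (8 of 8 detected, led by Mcpt4), which holds 6 of the members, summed to 145 to 201, 165 to 303 and 161 to 212 CPM in the PBS, isotype and anti-IL-4Rα libraries. The mucosal list (5 of 5 detected), which shares Kit and Cpa3 with it and was led by Kit, summed to 74.9 to 85.8, 71.8 to 110 and 65.2 to 92.5 CPM.

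Lacrimal gland and muscle content differed between libraries. The lacrimal acinar list (10 of 10 genes detected, led by Mucl2) summed to 136, 3462, 211, 7376 and 50970 CPM in PBS libraries 1 to 5, to 32440, 168, 6389, 27330 and 4433 in the isotype libraries and to 117100, 61100, 1275, 153200 and 147000 in the anti-IL-4Rα libraries. Apart from anti-IL-4Rα 3, the anti-IL-4Rα libraries were higher than all others. With this score as a covariate the members called numbered 5, 3 and 0 in the 3 comparisons, as without it. Leaving out the 3 libraries with the highest score, an alternative chosen after seeing the data, left 2 anti-IL-4Rα libraries; 44 of 18891 genes were then called in anti-IL-4Rα against isotype and 0 of the members, with log2 fold changes of -3.82 for Mcpt1, -2.87 for Mcpt2 and -1.38 for Tpsab1 (adjusted p of 0.164, 0.191 and 0.197, edgeR). The 16 calls under blockade in the lists of related proteases, granule genes, receptors and inducers were lost there too, among them Hdc (-1.30, adjusted p = 0.248), Il1rl1 (-1.47, 0.217), Cysltr2 (-1.34, 0.135) and Il4ra (-1.14, 0.156, all by edgeR).

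The skeletal muscle list (8 of 8 detected, led by Myh4) summed to 6784, 12410, 7312, 7755 and 9447 CPM in the PBS libraries, to 5519, 4197, 6385, 4908 and 6401 in the isotype libraries and to 7003, 5794, 7910, 6898 and 5381 in the anti-IL-4Rα libraries, and 7 of its 8 genes were called lower in isotype against PBS. With a muscle score as a covariate the 5 calls of that comparison were kept, and the log2 fold changes were 8.27 for Mcpt1, 6.83 for Mcpt2, 1.12 for Cma1 and 1.11 for Tpsb2. Those of Mcpt4 (0.66), Cpa3 (0.86) and Kit (-0.07) again did not pass, and in anti-IL-4Rα against isotype the Kit value turned from 0.02 to -0.03. As a description, the correlation with the muscle score was 0.585 for Tpsb2, 0.525 for Cma1, 0.514 for Mcpt4 and 0.466 for Cpa3. It was 0.343 for Tpsab1, 0.342 for Kit, 0.132 for Mcpt1 and 0.049 for Mcpt2. With the lacrimal score it lay between -0.174 (Mcpt2) and 0.153 (Mcpt4). The part of lacrimal and muscle content in the members' values was not tested otherwise.

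**Figure D5:**
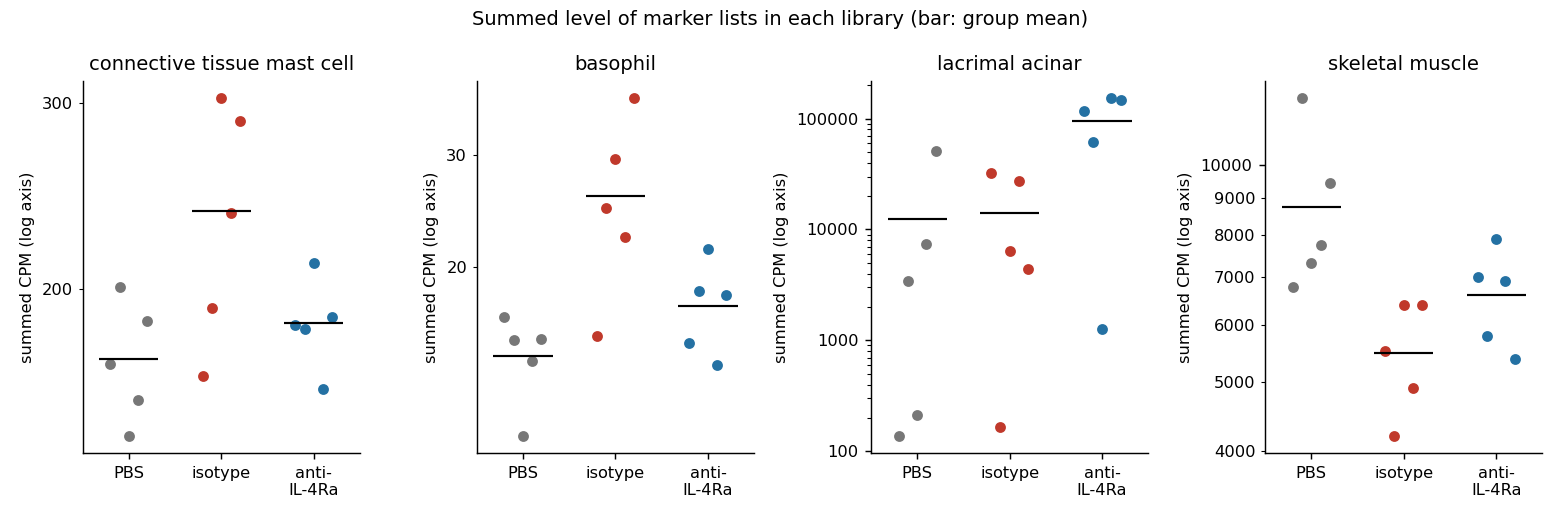
Summed CPM of 4 marker lists in each library on log axes, with a bar at the group mean. Connective tissue mast cell genes and basophil genes are highest in isotype libraries 3 and 5, lacrimal genes span 136 to 153200 CPM, and muscle genes are lower in the isotype libraries (4197 to 6401 CPM) than in the PBS libraries (6784 to 12410 CPM).

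The Pearson correlation of log2 CPM, centered within groups over the 15 libraries, was used as a description. The libraries share tissue content, which such values also follow. Genes most alike in pattern, with the members left out, were ranked by this correlation. For Mcpt1 they were Pigs (r = 0.891), Grn (0.886), Tlr8 (0.882), Dpp7 (0.864) and Adap2 (0.863), and for Mcpt2 Gm15975 (0.894), Trem2 (0.894), Cybb (0.892), Tlr8 (0.892) and Gnpda1 (0.884). Grn, Tlr8, Trem2 and Cybb are expressed in macrophages. For Mcpt4 they were Fn1 (0.948), Cyp11a1 (0.939), Cyp4v3 (0.930), Arsa (0.927) and Ust (0.915), and for Tpsb2 Ddr2 (0.963), P2ry14 (0.934), Slc18a2 (0.932), Clec10a (0.923) and Fam198b (0.921). Slc18a2 carries monoamines into granules, whereas Fn1 and Clec10a are also expressed in macrophages. Macrophage genes were thus not particular to the mucosal anchors. The mucosal and connective tissue anchors shared none of the listed genes, but Mcpt4 and Tpsb2 shared none either, so these short lists do not separate the types. Among the members, Mcpt4 reached 0.967 with Cpa3 and 0.957 with Cma1, and Tpsb2 reached 0.943 with Cma1. Within a type, Mcpt1 with Mcpt2 stood at 0.810, Mcpt4 with Tpsb2 at 0.870 and Mcpt4 with Tpsab1 at 0.615. Across types, Mcpt1 with Tpsb2 stood at 0.655 and Mcpt2 with Tpsab1 at 0.720. Values within and across types therefore overlapped.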

How the data were processed

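The authors selected polyA RNA, sequenced read pairs, filtered them at a Q score of 20 and mapped them uniquely to the B38 mouse genome with the Ensembl R100 gene model in Omicsoft Array Studio, with the counting of shared reads and the strand setting not given. Their deposited table holds estimated counts, unscaled for depth, which were rounded to whole numbers. Gene names and exon lengths came from GENCODE M21, which matched 55227 of 55487 identifiers. Genes that reached 10 counts in 5 or more libraries went into edgeR 4.0.16 (TMM factors, quasi-likelihood test, 1 shared fit of the 3 groups, two-sided, Benjamini-Hochberg over all genes tested, calls at an adjusted p under 0.05) in R 4.3.3. Each SE was derived from the F statistic. log2 CPM used a prior count of 2. Exact permutation tests and Wilson intervals used scipy 1.17.1. The members and lists were chosen with earlier results of these data known; up to 6 called genes per list and comparison were named by size of change, with the most abundant gene. The alternatives were upper quartile factors, DESeq2 1.42.0, limma 3.58.1 on log2(CPM + 1), other filters, a replicate block, 2 groups only, tissue scores as covariates and leaving out libraries. The library titles give each library its own mouse number. The methods of the study report 2 outliers without naming them, and all 15 deposited libraries were used.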

Additional observations from a re-analysis of the deposited data

How the results depend on the processing

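For isotype against PBS, the members called numbered 5 or 6 under every alternative that kept all libraries, and 3 to 6 with any 1 library left out, the 3 arising without isotype replicate 3. For anti-IL-4Rα against isotype they numbered 3 or 4, and 3 to 4 with a library left out; without the 3 lacrimal-rich libraries, chosen after seeing the data, they numbered 0. For anti-IL-4Rα against PBS they numbered 0 as reported, 3 with DESeq2 (Mcpt1, Mcpt2 and Tpsab1), 2 in the fit to the 2 groups only (Mcpt2 and Tpsab1), and 0 to 2 with a library left out. The cause was not tested.

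The replicate numbers did not pair the libraries: over 15 same-number pairs the correlation of deviations ran from -0.39 to 0.45, and 4 exceeded 0.1. With a replicate block the members called numbered 5, 3 and 0, and the genes called over the whole table went from 3235 to 2115, from 2826 to 1859 and from 707 to 312.

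The ratio of Mcpt1 to Mcpt4 kept its call in each comparison with 1 added count (6.30, -3.80 and 2.49 on the log2 scale), with 3 (5.13, -3.51 and 1.62), with Cma1 in place of Mcpt4, and without any 1 library (6.61 to 7.64, -4.25 to -3.61 and 2.72 to 3.75 on the log2 scale). Without the 3 lacrimal-rich libraries it was -3.38 against isotype and 3.59 against PBS, both at an adjusted exact p = 0.0952, where 2 against 5 libraries cannot reach 0.05. No member or gene of the 4 lists changed its direction in a comparison in which it was called; values that were not called did turn under some alternatives, among them Kit in anti-IL-4Rα against isotype (0.02, and -0.05 to 0.08 without 1 library). Depth limits the PBS values of Mcpt1 and Mcpt2, which rest on 6 and 8 counts.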
